A study of Mus musculus with 8 samples.

Results

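The genes described are 9 members of the WNT and beta-catenin pathway, Axin2, Lef1, Tcf7, Tcf7l1, Sp5, Ctnnb1, Rnf43, Znrf3 and Dkk1. They were taken by symbol from the array probe sets whose platform annotation lists a single gene. Of the 9 symbols, 8 had such a probe set, among 22180 genes in all, and Axin2 had a pair of them. Tcf7 had none and is not analysed here. Levels were read in 4 groups of wild-type C57BL/6J mouse material on the Affymetrix Mouse Gene 2.1 array, with 2 arrays a group. FGF-ESC and EpiSC, the primed epiblast state, are lines grown with 20% KSR, a serum replacement, and FGF2 on MEF, the mouse embryonic fibroblasts used as feeders. ESC were grown without feeders in the medium labelled 2i/LIF, to which the labels add 15% FCS, and 2i is the usual name for an inhibitor of MEK combined with an inhibitor of GSK3. The ICM is uncultured inner cell mass from E3.5 blastocysts, isolated by immunosurgery, and the labels give E3.5 embryos as the source of all lines, EpiSC included. FGF-ESC and EpiSC thus share medium and feeders. In every other pair medium or culture differs together with cell type. Feeders differ as well, except between ESC and the ICM, neither of which had feeders. The GSK3 inhibitor is present in ESC alone. RNA of the ICM was also extracted with a different column kit from the lines, so extraction differs in every comparison with the ICM.

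WNT ligands bind Frizzled receptors and LRP co-receptors at the cell surface. Without that signal, a destruction complex of AXIN, APC, CK1 and GSK3 marks beta-catenin for degradation, whereas WNT or a GSK3 inhibitor lets it accumulate and bind TCF and LEF factors in the nucleus. In mouse embryonic stem cells TCF7L1 mainly represses naive pluripotency genes, and beta-catenin relieves that repression. In the epiblast WNT signalling is known for the induction of primitive streak genes. Axin2, Sp5, Lef1, Dkk1, Rnf43 and Znrf3 are known targets of beta-catenin, and most of them feed back on the pathway.

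Promoter sequence from RefSeq (build GRCm38.p6) was available for 8 of the 9 genes, in windows from 250 bases before to 50 bases after each annotated start. It was searched on both strands for the TCF/LEF core in 4 forms that exclude one another at a position. The forms were CTTTGAA as well as CTTTGAT, together with CTTTGTA as well as CTTTGTT. At least 1 form was present in 16.9% of all 32851 windows and in at least 1 window of 18.9% of 27025 genes, and in 3 of the 8 member genes. Sp5 had a match 222 bases before the start, on the opposite strand, and another at 104 bases. Dkk1 had matches 117 and 98 bases before the start. Lef1 had 1 match, on the opposite strand 147 bases before the last of its 4 annotated starts, and Axin2 had none in its only window. A match is a description of letters, not of a bound site. These windows are shown because they belong to the secreted antagonist, the TCF/LEF factor and the target genes whose levels are set side by side below, with the matched letters in capitals.
Dkk1, chr19:30549447-30549746, minus strand: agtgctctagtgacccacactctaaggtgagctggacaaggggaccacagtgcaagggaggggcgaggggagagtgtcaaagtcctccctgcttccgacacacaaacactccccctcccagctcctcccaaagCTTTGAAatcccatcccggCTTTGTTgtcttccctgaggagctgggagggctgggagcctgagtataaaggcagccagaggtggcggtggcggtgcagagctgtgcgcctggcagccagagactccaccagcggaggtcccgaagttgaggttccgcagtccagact
Lef1 (last start), chr3:131156044-131156343, plus strand: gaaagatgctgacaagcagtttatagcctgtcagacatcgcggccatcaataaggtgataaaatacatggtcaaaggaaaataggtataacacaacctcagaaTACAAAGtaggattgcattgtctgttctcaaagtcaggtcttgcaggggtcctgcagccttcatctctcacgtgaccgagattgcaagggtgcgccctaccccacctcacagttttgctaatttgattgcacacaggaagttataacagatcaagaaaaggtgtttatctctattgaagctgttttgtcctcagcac
Axin2, chr11:108920099-108920398, plus strand: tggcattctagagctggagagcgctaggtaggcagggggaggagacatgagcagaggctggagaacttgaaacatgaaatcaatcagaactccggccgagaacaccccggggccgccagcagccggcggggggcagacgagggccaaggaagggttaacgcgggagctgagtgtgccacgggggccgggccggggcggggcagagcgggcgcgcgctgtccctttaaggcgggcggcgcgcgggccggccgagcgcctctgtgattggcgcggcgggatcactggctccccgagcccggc
Sp5, chr2:70474673-70474972, plus strand: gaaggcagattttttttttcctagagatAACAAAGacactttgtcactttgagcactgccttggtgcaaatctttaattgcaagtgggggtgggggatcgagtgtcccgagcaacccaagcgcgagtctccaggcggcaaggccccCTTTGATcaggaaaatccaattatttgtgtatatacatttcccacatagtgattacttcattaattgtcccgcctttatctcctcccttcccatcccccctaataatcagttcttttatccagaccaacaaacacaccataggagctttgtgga

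Values are deposited log2 intensities, so a difference of 1 is a 2-fold change, and 4.24, the median of all values, serves as a mark near background. A gene was tested if it lay above that mark on at least 2 arrays, which held for 13597 genes and for 7 of the members, each of them above it on all 8 arrays. A difference passed at a Benjamini-Hochberg adjusted p below 0.05 and a log2 difference of at least 1, both from limma fitted to all 8 arrays. Every SE pools the spread of the 4 groups, which was largest in FGF-ESC (residual SD 0.279) and smallest in ESC (0.124). Whether both arrays of a group stem from independent cultures or embryo pools is not stated in the labels, and p-values therefore cover only array-to-array spread, possibly technical.

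Markers went with the labels as list means, with fibroblast markers added in FGF-ESC and, at a lower level, in EpiSC. As a mean, 6 naive markers had 7.44 and 7.69 on the FGF-ESC arrays, 8.39 and 8.33 on the ESC arrays, 4.54 and 4.96 on the EpiSC arrays, and 7.24 and 7.22 on the ICM arrays. Primed epiblast markers were highest in EpiSC as a list mean, at 7.03 and 7.02, against 5.07 to 5.75 on the other arrays. Of 25 fibroblast markers, 25 and 23 were above the mark on the FGF-ESC arrays, with means of 8.32 and 7.11. The EpiSC arrays had means of 4.80 and 5.11, with 17 and 20 markers above it. On the ESC and ICM arrays means were 4.11 to 4.45, with 11 to 15 above it. Of 23 tested fibroblast markers, 6 passed as higher and 0 as lower in EpiSC relative to ESC (7.36% of all genes passed). Relative to the ICM, 6 were higher and 1 lower in EpiSC (15.3%). Trophectoderm and primitive endoderm markers were highest in the ICM as list means, at 5.79 to 5.92 on its arrays, against 4.05 to 5.01 on the others. Single markers did not all follow. The primitive endoderm marker Dab2 averaged 6.93 in FGF-ESC and 6.71 in the ICM. The trophectoderm marker Krt7 averaged 4.69 and 4.54 in these groups. The primed marker Otx2 averaged 6.1 in the ICM and 5.97 in EpiSC. The naive marker Nr0b1 averaged 3.93 in the ICM, against 8.35 in FGF-ESC and 8.37 in ESC. In such bulk samples fewer cells of a type and less RNA per cell cannot be told apart.

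Dkk1, a secreted antagonist that blocks the LRP co-receptors, was high in EpiSC and the ICM and low in FGF-ESC and ESC. It was at 4.27 and 4.27 on the FGF-ESC arrays, 4.51 and 4.42 on the ESC arrays, 5.31 and 5.23 on the EpiSC arrays, and 5.14 and 4.97 on the ICM arrays. The FGF-ESC arrays lay just above the mark near background, and all arrays of EpiSC and the ICM lay above all arrays of the other groups. Dkk1 fell in FGF-ESC relative to EpiSC, with a log2 difference of -1.004 ± 0.119 (SE, n = 2 arrays per group, limma adjusted p = 0.000943). That value sits on the fold minimum: it was -0.954 after quantile normalization (limma adjusted p = 0.00143) and -0.964 without EpiSC replicate 1 (0.0147), and did not pass in either, with adjusted p-values of 0.000875 to 0.0147 over all alternatives. ESC were lower than EpiSC by a smaller amount, -0.81 ± 0.12 (adjusted p = 0.00211), under the fold minimum. Against the ICM, differences were -0.79 ± 0.12 in FGF-ESC and -0.59 ± 0.12 in ESC (adjusted p = 0.00129 and 0.00597), also under the minimum. FGF-ESC and ESC did not differ past the threshold, at -0.19 (95% interval -0.47 to 0.08), nor did EpiSC and the ICM, at 0.22 (-0.05 to 0.49).

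Znrf3 and Rnf43 encode surface ubiquitin ligases that remove Frizzled receptors. Znrf3 passed in no comparison, and Rnf43 was too low to be tested. Znrf3 was at 4.78 and 4.83 on the FGF-ESC arrays, 5.21 and 5.16 on the ESC arrays, 5.12 and 5.09 on the EpiSC arrays, and 4.77 and 4.85 on the ICM arrays. ESC and EpiSC thus lay above FGF-ESC and the ICM on every array, by small amounts. Only the difference of ESC from the ICM, 0.37 ± 0.11, had a limma adjusted p below 0.05 (0.0311), and FGF-ESC with the ICM gave -0.01 (95% interval -0.26 to 0.25). Rnf43 was at 3.95 and 3.96 on the FGF-ESC arrays, 3.99 and 4.36 on the ESC arrays, 4.05 and 4.05 on the EpiSC arrays, and 3.99 and 4.06 on the ICM arrays. ESC replicate 2 was the single array above the mark near background, so Rnf43 was not tested and a difference was not detectable at this signal.

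Ctnnb1, which encodes beta-catenin itself, overlapped between the cultured lines and was lower in the ICM. It was at 8.56 and 8.34 on the FGF-ESC arrays, 8.45 and 8.38 on the ESC arrays, 8.55 and 8.43 on the EpiSC arrays, and 7.75 and 7.66 on the ICM arrays. The ranges of the 3 cultured groups overlapped, and both ICM arrays lay below all of them. Relative to the ICM the differences were 0.75 ± 0.13 in FGF-ESC, 0.71 ± 0.13 in ESC and 0.79 ± 0.13 in EpiSC (limma adjusted p = 0.00218, 0.00314 and 0.00147), all under the fold minimum. Among the cultured lines the differences were between -0.07 and 0.03, and the 95% intervals lay within -0.36 and 0.32. GSK3 inhibition acts on the stability of the protein, which an RNA array does not measure.

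**Figure D1:**
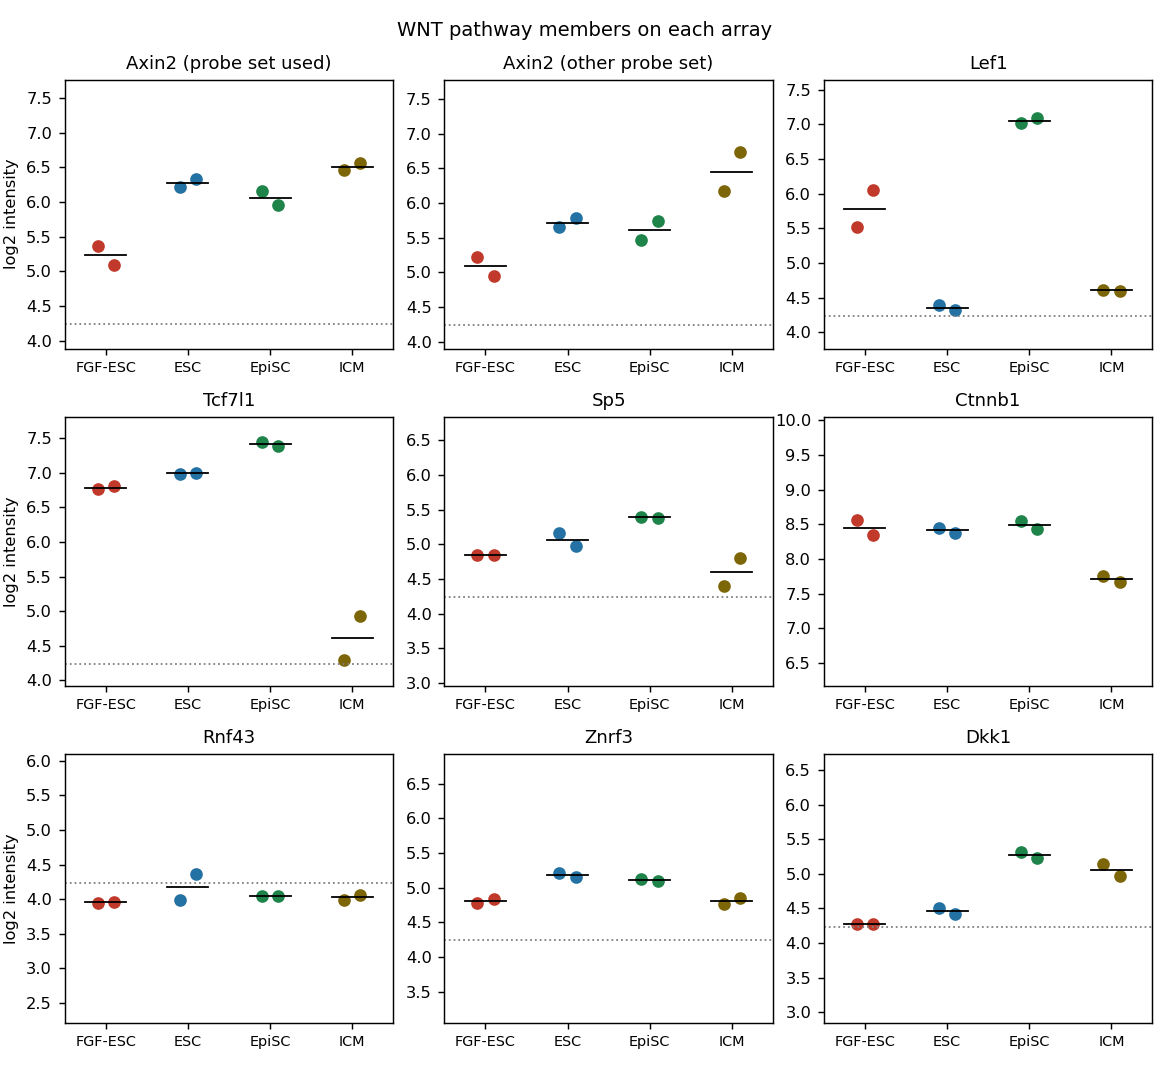
Log2 intensity (vertical axis) of each member probe set on every array, with the 4 groups along the horizontal axis, points for single arrays, bars for group means and a dotted line at 4.24, the median of all values, where it falls inside the panel. All panels span the same number of log2 units. Lef1 is highest on the EpiSC arrays (7.02 and 7.09), Tcf7l1 is lowest in the ICM (4.29 and 4.93), and Axin2 is lowest in FGF-ESC with both of its probe sets.

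Lef1, a TCF/LEF factor that usually acts as an activator with beta-catenin, showed the widest range of levels over the cultured lines among the tested members. It was at 5.52 and 6.05 on the FGF-ESC arrays, 4.39 and 4.32 on the ESC arrays, 7.02 and 7.09 on the EpiSC arrays, and 4.61 and 4.60 on the ICM arrays. Groups did not overlap, and FGF-ESC stood between ESC and EpiSC. Lef1 rose in FGF-ESC relative to ESC by 1.43 ± 0.17 (SE, n = 2 arrays per group, limma adjusted p = 0.00175), a 2.69-fold difference, and fell relative to EpiSC, with -1.27 ± 0.17 (0.00177). In ESC, grown with the GSK3 inhibitor, Lef1 fell relative to EpiSC, with -2.70 ± 0.17 (adjusted p = 3.91e-05), a 6.51-fold difference. EpiSC rose relative to the ICM by 2.45 ± 0.17 (1.77e-05). ESC and the ICM, the lowest neighbours in the order, did not differ past the threshold, at -0.25 (95% interval -0.64 to 0.14).

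FGF-ESC also had more Lef1 than the ICM, by 1.18 ± 0.17 (limma adjusted p = 0.00107), but without FGF-ESC replicate 2 the difference was 0.91 (0.000866) and did not pass the fold minimum. Over all alternatives its adjusted p ran from 9.94e-05 to 0.0137. The FGF-ESC array with the lower fibroblast mean, 7.11, had the higher Lef1 level. Without the other one, whose fibroblast mean was 8.32, the Lef1 difference was 1.70 from ESC, -1.005 from EpiSC and 1.45 from the ICM, and all passed.

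Tcf7l1, the main TCF repressor of mouse stem cells, separated cultured lines from uncultured ICM. It was at 6.77 and 6.80 on the FGF-ESC arrays, 6.98 and 7.0 on the ESC arrays, 7.44 and 7.38 on the EpiSC arrays, and 4.29 and 4.93 on the ICM arrays. The ICM arrays lay far below all others, although they differed from each other by more than the arrays of any other group, with an SD of 0.448. Tcf7l1 rose relative to the ICM by 2.17 ± 0.19 in FGF-ESC, 2.38 ± 0.19 in ESC and 2.80 ± 0.19 in EpiSC (limma adjusted p = 7.71e-05, 5.99e-05 and 1.53e-05), or 4.51-, 5.21- and 6.98-fold. Without ICM replicate 1, the lower array, these differences were 1.86, 2.06 and 2.49 and still passed. Among the cultured lines the order was EpiSC, ESC, FGF-ESC on every array, yet no step passed. FGF-ESC with EpiSC gave -0.63 ± 0.19 (adjusted p = 0.0514), ESC with EpiSC -0.42 ± 0.19 (0.175), and FGF-ESC with ESC -0.21 (95% interval -0.64 to 0.23).

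Axin2, a scaffold of the destruction complex and the most widely used readout of beta-catenin activity, was lowest in FGF-ESC. On its brighter probe set, 17257801, it was at 5.37 and 5.09 on the FGF-ESC arrays, 6.22 and 6.33 on the ESC arrays, 6.16 and 5.95 on the EpiSC arrays, and 6.46 and 6.56 on the ICM arrays. Both FGF-ESC arrays lay below every other array. Axin2 fell in FGF-ESC relative to the ICM, with -1.28 ± 0.14 (SE, n = 2 arrays per group, limma adjusted p = 0.000262), a 2.43-fold difference, and relative to ESC, with -1.05 ± 0.14 (0.00301). Relative to EpiSC, grown in the same kind of medium, the difference was -0.83 ± 0.14 (0.00532), under the fold minimum.

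ESC did not differ past the threshold from EpiSC or the ICM in Axin2. The difference from EpiSC was 0.22 (95% interval -0.11 to 0.55, limma adjusted p = 0.351) and that from the ICM was -0.23 (-0.56 to 0.09, adjusted p = 0.253). EpiSC had -0.45 ± 0.14 relative to the ICM (adjusted p = 0.0358), under the fold minimum. The other Axin2 probe set, 17271197, read 5.22 and 4.95 on the FGF-ESC arrays, 5.65 and 5.78 on the ESC arrays, 5.47 and 5.74 on the EpiSC arrays, and 6.18 and 6.73 on the ICM arrays. There too FGF-ESC were lowest on both arrays, but the differences were -0.63 from ESC, -0.52 from EpiSC and -1.36 from the ICM.

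The lower Axin2 level of FGF-ESC relative to ESC was close to the fold minimum. It was -0.84 with the mean of both probe sets (limma adjusted p = 0.00976), -0.905 without FGF-ESC replicate 2 (0.00325) and -0.994 without ESC replicate 2 (0.0433), and did not pass in these, with adjusted p-values of 0.00177 to 0.0433 over all alternatives. Without FGF-ESC replicate 1, which had the higher fibroblast mean, it was -1.19, and relative to the ICM -1.42. Both FGF-ESC arrays had fibroblast means above 7, at 8.32 and 7.11, and the part of these cells in the Axin2 result was not tested.

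Sp5, which encodes a zinc finger factor, varied little and passed in no comparison. It was at 4.85 and 4.85 on the FGF-ESC arrays, 5.16 and 4.97 on the ESC arrays, 5.40 and 5.38 on the EpiSC arrays, and 4.40 and 4.80 on the ICM arrays. EpiSC were highest and the ICM lowest, without overlap between neighbouring groups. EpiSC differed from the ICM by 0.79 ± 0.15 (limma adjusted p = 0.00399), FGF-ESC from EpiSC by -0.54 ± 0.15 (0.0415) and ESC from the ICM by 0.46 ± 0.15 (0.0471), all under the fold minimum. ESC did not differ past the threshold from EpiSC, at -0.33 (95% interval -0.68 to 0.02), and FGF-ESC not from ESC, at -0.21 (-0.56 to 0.14).

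Counted over the 7 tested members, 2 passed between FGF-ESC and ESC (Lef1 higher, Axin2 lower), where 6.21% of all tested genes passed. Between FGF-ESC and EpiSC 2 passed, Lef1 and Dkk1, both lower in FGF-ESC, against 7.28% of all genes. FGF-ESC differed from the ICM in 3 members, with Lef1 and Tcf7l1 higher and Axin2 lower (14.8% of all genes). Between ESC and EpiSC 1 passed, Lef1 (7.36%), between ESC and the ICM 1, Tcf7l1 (11.4%), and between EpiSC and the ICM 2, Lef1 and Tcf7l1, both higher in EpiSC (15.3%). By adjusted p alone 2, 4, 5, 2, 5 and 5 members passed in these comparisons, in the same order, where 15.3%, 19.8%, 36.7%, 19.0%, 33.0% and 38.4% of all tested genes did. Groups of 2 arrays separated without overlap for many genes, 62.8%, 60.6%, 65.8%, 67.4%, 69.6% and 71.2% of all tested in that order, so a lack of overlap says little on its own. The comparisons share groups, so these counts are not separate evidence. The median log2 difference over the 7 was -0.21, -0.63 and 0.25 for FGF-ESC minus ESC, EpiSC and the ICM, where all tested genes had medians of -0.06, -0.04 and -0.02. It was -0.33 for ESC minus EpiSC, 0.37 for ESC minus the ICM and 0.79 for EpiSC minus the ICM, beside 0.01, 0.02 and 0.01 for all genes.

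**Figure D2:**
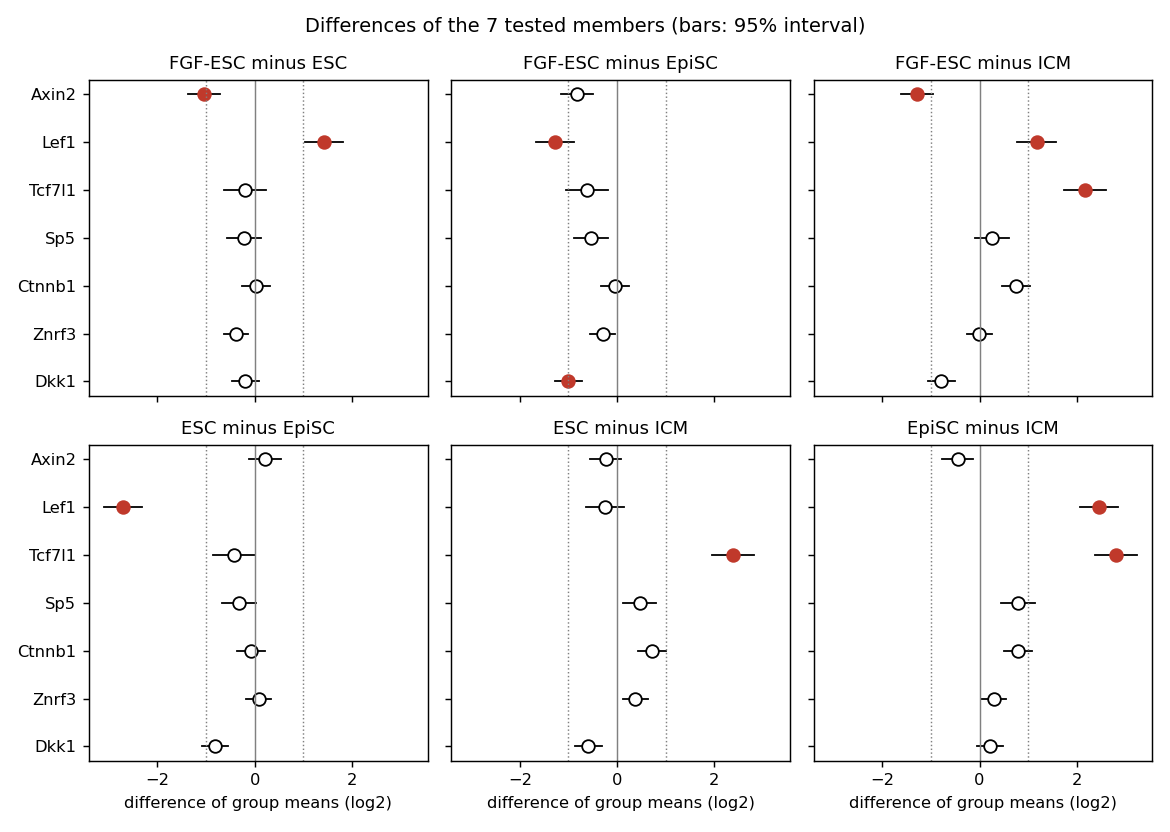
Difference of group means on the log2 scale (horizontal axis) of the 7 tested members (rows) in the 6 comparisons, with 95% intervals from limma as bars. Filled points passed both thresholds and dotted lines mark a difference of 1. Lef1 passed in 5 panels, Tcf7l1 in the 3 panels against the ICM, Axin2 in 2 and Dkk1 in 1.

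The genes most like each member that passed anywhere were taken from the 3433 other tested genes whose group means spanned at least 1. Likeness was measured as Pearson's r over the 8 arrays, which come in 4 groups of 2, so that r mostly follows the group means. Most like Axin2 were Epha4 (r = 0.98), an ephrin receptor, Atad2b (0.969) and Scd1 (0.959), a fatty acid desaturase. Epha4 was at 5.10 and 5.04 on the FGF-ESC arrays, 7.06 and 7.19 on the ESC arrays, 6.61 and 6.60 on the EpiSC arrays, and 7.76 and 7.90 on the ICM arrays, the same order of groups as Axin2. Most like Lef1 were Sh3gl3 (0.988), Obi1 (0.981) and Top2b (0.977), a DNA topoisomerase. Tcf7l1 was matched most closely by Bivm (0.998), Eml4 (0.996), a microtubule-binding protein, and Tubb5 (0.995), a beta-tubulin. For Dkk1 they were Zdhhc2 (0.987), a palmitoyltransferase, Cd59a (0.974), a complement regulator, and Sfmbt2 (0.967), a Polycomb-type protein.

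The rest of the pathway was followed in 118 further genes sorted by role, of which 114 had a probe set of their own and 89 were tested. Of these 89, 8 passed between FGF-ESC and ESC (6 higher, 2 lower, 8.99% beside the 6.21% of all genes), 14 between FGF-ESC and EpiSC (8 higher, 6 lower, 15.7% beside 7.28%) and 17 between FGF-ESC and the ICM (10 higher, 7 lower, 19.1% beside 14.8%). ESC differed from EpiSC in 15 (6 higher, 9 lower, 16.9% beside 7.36%) and from the ICM in 12 (5 higher, 7 lower, 13.5% beside 11.4%). EpiSC differed from the ICM in 24 (15 higher, 9 lower, 27% beside 15.3%). The count between FGF-ESC and ESC depended on single arrays: leaving out FGF-ESC replicate 1 gave 4 and leaving out FGF-ESC replicate 2 gave 14, while it was 4 when ESC replicate 1 was dropped and 3 when ESC replicate 2 was. Medians over the 89 genes lay between -0.04 and 0.09 in the 6 comparisons.

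Of 19 WNT ligands, 8 were tested and only Wnt8a, a ligand of the early embryo, passed. In each comparison with EpiSC this was 12.5% of the tested ligands. The share of all genes was 7.28% for FGF-ESC, 7.36% for ESC and 15.3% for the ICM. Wnt8a was at 3.70 and 3.62 on the FGF-ESC arrays, 3.73 and 3.68 on the ESC arrays, 6.21 and 5.49 on the EpiSC arrays, and 3.68 and 3.76 on the ICM arrays. It was thus above the mark near background in EpiSC alone. The differences were -2.2 ± 0.21 for FGF-ESC minus EpiSC, -2.15 ± 0.21 for ESC minus EpiSC and 2.13 ± 0.21 for EpiSC minus the ICM (limma adjusted p = 0.000358, 0.000283 and 0.000112), and their sizes depend on that floor.

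Wls, the carrier that brings WNT proteins to the cell surface, was at 7.87 and 6.39 on the FGF-ESC arrays, 4.98 and 4.76 on the ESC arrays, 6.12 and 6.17 on the EpiSC arrays, and 3.93 and 4.34 on the ICM arrays. It rose relative to the ICM in FGF-ESC, by 2.99 ± 0.40 (limma adjusted p = 0.000674), and in EpiSC, by 2.01 ± 0.40 (0.0046), although the ICM mean of 4.14 lies under the mark near background, on which these sizes depend. The rise of FGF-ESC over ESC, 2.26 ± 0.40 (0.00897), did not pass without ESC replicate 1 (2.37, adjusted p = 0.0723) or ESC replicate 2 (2.15, adjusted p = 0.0826), nor in a fit of these groups alone (adjusted p = 0.0578). Without FGF-ESC replicate 1 it was 1.515 (adjusted p = 0.00176, the lowest and highest over its alternatives being 1.56e-05 and 0.0826). Within FGF-ESC, Wls was higher on the array with the higher fibroblast mean, and the part of fibroblasts was not tested. Porcn, which lipidates WNT proteins, fell in EpiSC relative to the ICM, with -1.26 ± 0.12 (limma adjusted p = 0.000108).

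Frizzled receptors differed in which group was highest. Of 12 tested receptors and co-receptors, 2 were lower in ESC than in EpiSC, Fzd3 and Ror1 (16.7% beside 7.36% of all genes). In FGF-ESC 1, Fzd3, was lower than in EpiSC (8.33% beside 7.28%), a share near that of all genes. Fzd3 was at 5.10 and 5.08 on the FGF-ESC arrays, 4.15 and 4.52 on the ESC arrays, 6.37 and 6.26 on the EpiSC arrays, and 5.02 and 5.02 on the ICM arrays. The differences were -1.22 ± 0.14 for FGF-ESC minus EpiSC, -1.98 ± 0.14 for ESC minus EpiSC and 1.295 ± 0.142 for EpiSC minus the ICM (limma adjusted p = 0.000866, 6.6e-05 and 0.000198). Fzd1 rose in FGF-ESC relative to the ICM by 1.20 ± 0.14 (0.000361).

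R-spondins stabilise Frizzled by holding ZNRF3 and RNF43 off it through LGR receptors, and Rspo3 alone of them passed, with its highest level in EpiSC. Rspo1 was tested, with group means of 5.03 (FGF-ESC), 5.14 (ESC), 5.12 (EpiSC) and 5.26 (ICM), and Rspo2 and Rspo4 were not. Rspo3 was at 5.45 and 4.58 on the FGF-ESC arrays, 4.23 and 4.28 on the ESC arrays, 6.35 and 6.66 on the EpiSC arrays, and 4.16 and 4.29 on the ICM arrays. It differed by -1.49 ± 0.25 for FGF-ESC minus EpiSC, -2.25 ± 0.25 for ESC minus EpiSC and 2.28 ± 0.25 for EpiSC minus the ICM (limma adjusted p = 0.00513, 0.000573 and 0.000212), the last against an ICM mean of 4.22, near background. Its receptor Lgr4 rose relative to the ICM in FGF-ESC, by 1.29 ± 0.16, and in EpiSC, by 1.895 ± 0.16 (adjusted p = 0.000475 and 4.81e-05). Lgr4 rose in ESC too, by 1.03 ± 0.16 (0.00174), which did not pass in 3 of 11 alternatives. Of the 4 tested genes of this group, no other passed. Within FGF-ESC, the array with the higher fibroblast mean had the higher Rspo3 level, and the part of fibroblasts was not tested.

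Among 13 tested secreted or surface antagonists, Dkk2 stood out in FGF-ESC, opposite to its relative Dkk1. Dkk2 was at 7.13 and 6.25 on the FGF-ESC arrays, 4.56 and 4.35 on the ESC arrays, 4.27 and 4.28 on the EpiSC arrays, and 4.29 and 4.45 on the ICM arrays. It rose in FGF-ESC by 2.23 ± 0.25 relative to ESC, 2.42 ± 0.25 relative to EpiSC and 2.32 ± 0.25 relative to the ICM (limma adjusted p = 0.00133, 0.000509 and 0.000228). Without FGF-ESC replicate 1 these differences were 1.79, 1.98 and 1.88, and all passed. The higher Dkk2 level was on the array with the higher fibroblast mean, 8.32 against 7.11, and the part of fibroblasts in the result was not tested. Sfrp1, a soluble Frizzled-like protein, rose relative to the ICM in ESC, by 1.97 ± 0.24 (adjusted p = 0.000559), and in EpiSC, by 1.27 ± 0.24 (0.00398). The latter did not pass in 1 of 11 alternatives. Dkkl1 fell relative to the ICM in FGF-ESC, with -1.53 ± 0.16, and in EpiSC, with -1.59 ± 0.16. In ESC it fell by a smaller amount, -1.07 ± 0.16 (limma adjusted p = 0.00156), which did not pass in 1 of 10 alternatives. Dkkl1 averaged 3.22 in FGF-ESC, 3.68 in ESC and 3.16 in EpiSC. These means lie under the mark near background, on which the sizes depend.

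**Figure D3:**
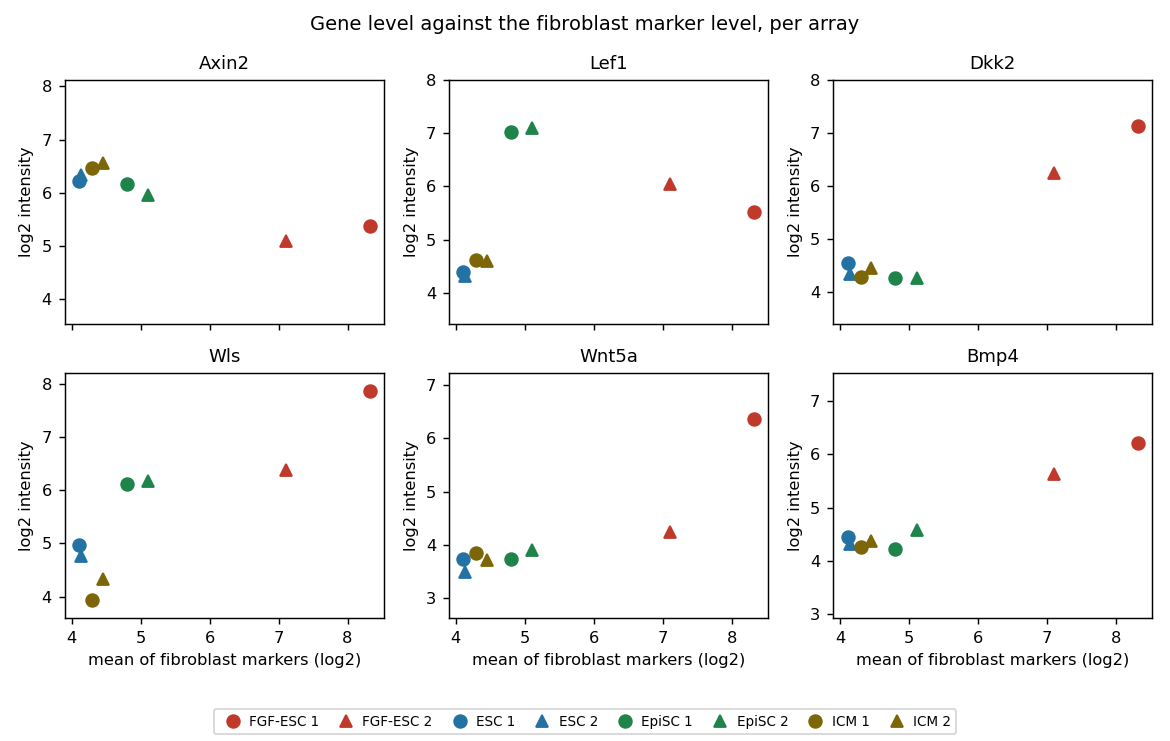
Log2 intensity of 6 genes (vertical axis) against the mean log2 level of 25 fibroblast markers (horizontal axis), a point for each of the 8 arrays with its group in colour and its replicate as shape. The FGF-ESC arrays stand at 8.32 and 7.11 on the horizontal axis. Dkk2, Wls, Wnt5a and Bmp4 are higher on the first of them, whereas Lef1 is higher on the second and Axin2 is low on both.

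Wnt5a, a ligand also made by mesenchymal cells, is given here because of its spread, and was chosen after its values were seen. It was at 6.36 and 4.24 in FGF-ESC and between 3.49 and 3.90 on the other 6 arrays. The FGF-ESC arrays differed more from each other than the second did from the rest, and no comparison passed (1.69 ± 0.54 against ESC, limma adjusted p = 0.0706). Against the ICM it was 1.515 (adjusted p = 0.0577), which passed with the replicate number as a block (0.0491), with an intensity trend (0.0474) and without FGF-ESC replicate 2 (2.57, 8.4e-06), with adjusted p-values up to 0.181 over its alternatives. Without that replicate the difference from ESC was 2.74 (adjusted p = 9.86e-06), the lowest over its alternatives, and the highest was 0.275.

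In the destruction complex and its regulators, 3 of 17 tested genes (17.6%) passed in each comparison with the ICM, beside the 14.8%, 11.4% and 15.3% of all genes for FGF-ESC, ESC and EpiSC. Of these 17 genes 0 passed between FGF-ESC and ESC, between FGF-ESC and EpiSC or between ESC and EpiSC, by limma, while 1, 4 and 4 had an unadjusted p below 0.05 in these comparisons. Btrc, the ubiquitin ligase subunit that recognises marked beta-catenin, was at 6.69 and 6.43 on the FGF-ESC arrays, 6.98 and 6.76 on the ESC arrays, 6.63 and 6.79 on the EpiSC arrays, and 8.95 and 9.13 on the ICM arrays. It fell relative to the ICM in all 3 lines, with -2.49 ± 0.15 in FGF-ESC, -2.18 ± 0.15 in ESC and -2.34 ± 0.15 in EpiSC (limma adjusted p = 1.2e-05, 2.76e-05 and 1.05e-05). Csnk1e, a CK1 kinase, fell in ESC relative to the ICM, with -1.12 ± 0.14 (5e-04). In FGF-ESC it fell with -1.03 ± 0.14 (0.000644), which did not pass in 2 of 11 alternatives.

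Of 15 tested nuclear partners of beta-catenin, set against the ICM, 3 were higher and 0 lower in FGF-ESC (20% beside 14.8% of all genes), 2 higher and 1 lower in ESC (20% beside 11.4%), and 2 higher and 0 lower in EpiSC (13.3% beside 15.3%). Bcl9, an adaptor that links beta-catenin to the transcription machinery, was at 5.8 and 5.8 on the FGF-ESC arrays, 5.73 and 5.76 on the ESC arrays, 6.48 and 6.46 on the EpiSC arrays, and 3.98 and 4.50 on the ICM arrays. It rose relative to the ICM by 1.56 ± 0.17 in FGF-ESC, 1.51 ± 0.17 in ESC and 2.24 ± 0.17 in EpiSC (limma adjusted p = 0.000222, 0.000327 and 2.56e-05). Tcf7l2, a relative of Tcf7l1, was at 6.88 and 6.49 on the FGF-ESC arrays, 5.98 and 5.87 on the ESC arrays, 6.16 and 6.48 on the EpiSC arrays, and 7.15 and 7.27 on the ICM arrays. It fell in ESC relative to the ICM, with -1.29 ± 0.17 (0.000726), opposite to Tcf7l1.

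Known WNT and beta-catenin targets other than the members were mixed. Of 11 tested, 3 rose and 0 fell in FGF-ESC relative to ESC (6.21% of all genes passed). In FGF-ESC relative to EpiSC 2 rose and 3 fell (7.28%), and in ESC relative to EpiSC 0 rose and 4 fell (7.36%). The rise of Apcdd1 in FGF-ESC relative to EpiSC, 1.25 ± 0.36 (limma adjusted p = 0.0451), did not pass in 6 of 11 alternatives. Relative to the ICM, 2 rose and 1 fell in FGF-ESC (14.8%), 1 rose and 1 fell in ESC (11.4%), and 5 rose and 1 fell in EpiSC (15.3%). The gene that fell each time was Cdx2. It is also among the trophectoderm markers, so that fall repeats part of the marker result. The primitive streak gene Mixl1 was at 4.08 and 4.22 on the FGF-ESC arrays, 4.14 and 4.60 on the ESC arrays, 6.07 and 5.84 on the EpiSC arrays, and 3.87 and 4.39 on the ICM arrays. Both EpiSC arrays lay above all others. The growth factor Fgf8 fell relative to EpiSC in FGF-ESC, with -2.07 ± 0.21, and in ESC, with -2.06 ± 0.21 (limma adjusted p = 0.000413 and 0.000309). Tnfrsf19, a receptor also known as Troy, fell in FGF-ESC relative to EpiSC, with -1.39 ± 0.15 (0.000512).

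Ccnd1, which encodes cyclin D1, was at 9.46 and 8.80 on the FGF-ESC arrays, 8.06 and 8.02 on the ESC arrays, 8.28 and 8.41 on the EpiSC arrays, and 5.98 and 6.00 on the ICM arrays. It rose relative to the ICM by 3.14 ± 0.20 in FGF-ESC, 2.05 ± 0.20 in ESC and 2.35 ± 0.20 in EpiSC (limma adjusted p = 1.62e-05, 0.000168 and 4.86e-05). Its difference between FGF-ESC and ESC, 1.09 ± 0.20 (adjusted p = 0.0105), did not pass in 4 of 11 alternatives (adjusted p up to 0.0864), among them without FGF-ESC replicate 1 (0.758) and without either ESC array. Myc, a growth regulator, differed there by 1.15 ± 0.18 (0.00578) and did not pass in 3 of 11, without FGF-ESC replicate 1 (0.885) or without either ESC array (adjusted p up to 0.0647). Bmp4, a ligand of another pathway that WNT can induce, rose in FGF-ESC by 1.54 ± 0.20 relative to ESC (0.00266), by 1.52 ± 0.20 relative to EpiSC (0.00169) and by 1.61 ± 0.20 relative to the ICM (0.000508). Without FGF-ESC replicate 1 these values were 1.25, 1.23 and 1.32. Bmp4 was higher on the FGF-ESC array with the higher fibroblast mean, at 6.22 against 5.63. So were Ccnd1, at 9.46 against 8.80, and Myc, at 7.24 against 6.71. The part of fibroblasts in these results was not tested.

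Esrrb, Klf2, Tfcp2l1, Nanog and Nr5a2 are 5 genes known as targets of TCF7L1 repression in mouse ESC. Of these 5, 4 rose and 0 fell in ESC relative to EpiSC (7.36% of all genes passed). In FGF-ESC relative to EpiSC, 3 rose and 0 fell (7.28%). Esrrb and Tfcp2l1 are also among the naive markers given above. These counts therefore partly repeat the marker result, and repression by TCF7L1 was not tested. Nr5a2, a nuclear receptor, was at 6.78 and 6.99 on the FGF-ESC arrays, 7.63 and 7.65 on the ESC arrays, 4.76 and 5.0 on the EpiSC arrays, and 8.82 and 8.97 on the ICM arrays. EpiSC, with the highest Tcf7l1 mean (7.41), had the lowest Nr5a2, and the ICM, with the lowest Tcf7l1 mean (4.61), had the highest. The groups between them did not follow that inverse order. FGF-ESC had a lower mean than ESC in Tcf7l1 (6.79 against 6.99) and also in Nr5a2 (6.89 against 7.64). Klf2, a zinc finger factor, had the same order of group means as Nr5a2 but overlapping FGF-ESC and ESC arrays. Klf2 was at 6.30 and 6.86 on the FGF-ESC arrays, 6.70 and 6.83 on the ESC arrays, 4.79 and 5.25 on the EpiSC arrays, and 6.84 and 6.90 on the ICM arrays. The other genes of the list were highest in ESC and not in the ICM. Tfcp2l1, a transcription factor, averaged 7.13 (FGF-ESC), 8.88 (ESC), 5.01 (EpiSC) and 8.42 (ICM). Esrrb, a nuclear receptor, averaged 6.06 (FGF-ESC), 6.61 (ESC), 5.4 (EpiSC) and 5.67 (ICM). Nanog, a core pluripotency factor, averaged 9.01 (FGF-ESC), 9.99 (ESC), 9.08 (EpiSC) and 9.23 (ICM). Nr5a2, Tfcp2l1 and Klf2 fell in EpiSC relative to the ICM, with -4.01 ± 0.14, -3.41 ± 0.16 and -1.86 ± 0.21 (limma adjusted p = 5.71e-07, 2.52e-06 and 0.000233). Esrrb and Nanog did not pass there.

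Beta-catenin also links cadherins to the cytoskeleton, and of 5 tested partners there 3 passed between ESC and EpiSC (2 higher, 1 lower, beside 7.36% of all genes), while Ctnna1 and Ctnnd1 did not. Cdh1, which encodes E-cadherin, was at 9.14 and 9.62 on the FGF-ESC arrays, 10.13 and 10.25 on the ESC arrays, 7.62 and 8.66 on the EpiSC arrays, and 9.81 and 9.50 on the ICM arrays. It rose in ESC relative to EpiSC by 2.05 ± 0.31 (limma adjusted p = 0.00263), and Jup, plakoglobin, the closest relative of beta-catenin, rose by 1.19 ± 0.16 (0.00136). Cdh2, N-cadherin, was at 6.30 and 4.98 on the FGF-ESC arrays, 4.86 and 4.92 on the ESC arrays, 6.97 and 7.13 on the EpiSC arrays, and 4.37 and 3.25 on the ICM arrays. It fell in ESC relative to EpiSC, with -2.16 ± 0.44 (0.0109), which did not pass when any 1 of the 4 arrays compared was left out (adjusted p up to 0.0827). Its rise in EpiSC over the ICM was 3.24 ± 0.44 (0.000651), and the ICM mean of 3.81 is near background. Within FGF-ESC, Cdh2 was higher on the array with the higher fibroblast mean, and the part of fibroblasts was not tested.

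**Figure D4:**
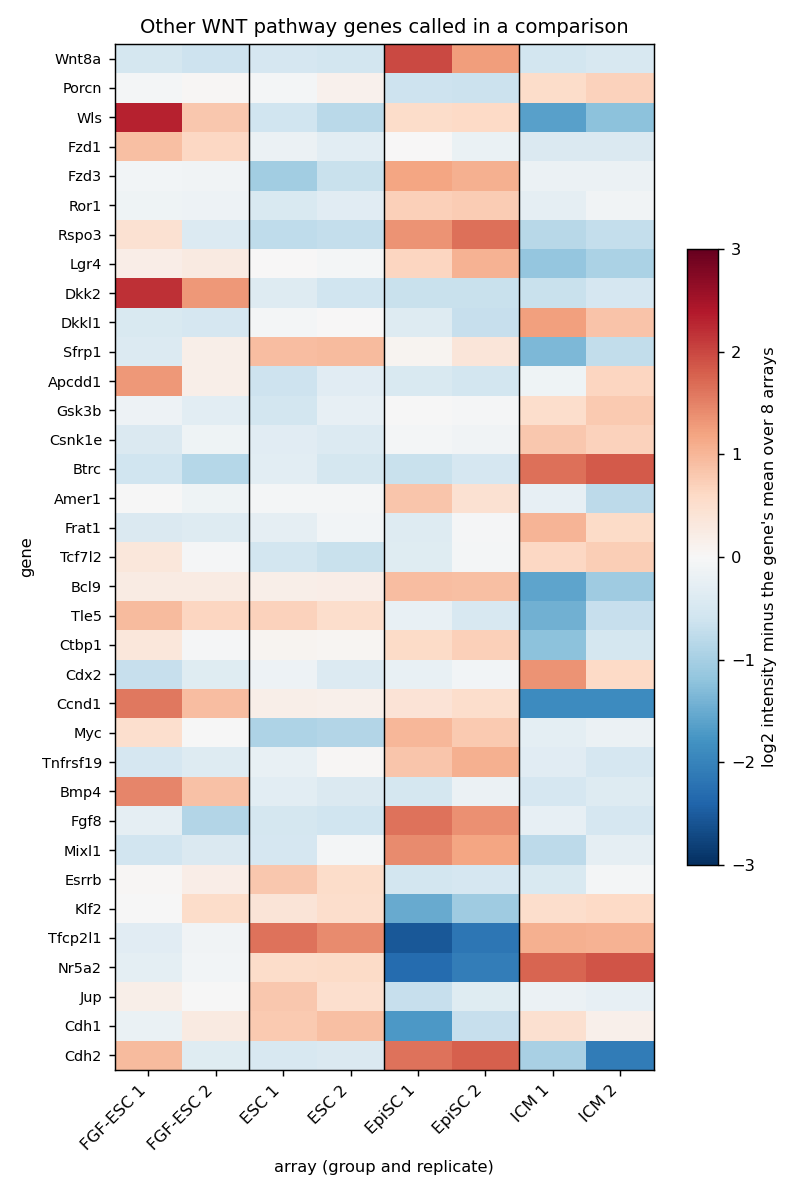
Log2 intensity minus each gene's mean over the 8 arrays (colour) for the 35 pathway genes other than the members that passed in at least 1 comparison (rows), in the 8 arrays (columns). Wnt8a, Fzd3, Rspo3, Tnfrsf19, Fgf8 and Mixl1 are highest in EpiSC, Dkk2 and Bmp4 in FGF-ESC, and Btrc in the ICM.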

How the data were processed

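Amplification and biotin labelling of RNA from all 4 groups used NuGEN kits, per the labels' protocols, and the ICM was extracted with a different column kit from the lines. The deposited values, 1 per probe set and array, were read as log2 intensities, since they run from about 2 to about 12. Per the submitters' processing notes, the authors used Expression Console 1.3.1 to make them. How probes were summarised and background-corrected, and the build, are not given in the sources here. Array medians were 4.16 to 4.28, and no further normalization was applied.

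Of 41345 probe sets, 23521 were listed with 1 gene, 1814 with several and 16010 with none. Several probe sets of a gene were represented by the brightest over all arrays. With limma 3.58.1 in R 4.3.3 a mean per group was estimated over the 8 arrays (4 residual degrees of freedom), and p-values were adjusted over the 13597 tested genes of each of 6 comparisons. The code was tested on simulated data. The number of arrays limits the precision. Arrays of a group correlated at r = 0.967 to 0.994 across tested genes, so none was a copy of another.

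The members and gene lists were chosen with earlier results of these data known. All members are named, as are, from each role list and comparison, up to 3 genes that passed with the largest differences and without overlap, of which the text gives a part, and for each member that passed the 3 most similar genes. Tnfrsf19, Wnt5a and, in the closing section, Wnt3, Nkd1, Fzd2 and Fzd10 were chosen after their values were seen. Alternatives were the filter, quantile normalization, the mean of probe sets, a fit of the compared groups alone, the replicate number as a block, an intensity trend, no fold minimum and each array left out. Those for pathway genes other than members were added after the data were seen.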

Additional observations from a re-analysis of the deposited data

How the results depend on the processing

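The 7 members in 6 comparisons were recomputed under 11 alternatives. Of 462 member values 450 kept their direction and their side of the thresholds, 6 no longer passed and 6 changed sign; of 144 counts, 123 stayed within 1.5 times. The 6 that no longer passed are given with Axin2, Dkk1 and Lef1 in the report. The sign changes were all of differences near 0. Ctnnb1 for FGF-ESC minus ESC ranged from -0.074 to 0.14 with single arrays left out, and for FGF-ESC minus EpiSC from -0.147 to 0.066. Znrf3 for FGF-ESC minus the ICM ranged from -0.043 to 0.032. The count of members between FGF-ESC and ESC was 1 with the mean of probe sets and 1 to 2 with single arrays left out, and between FGF-ESC and EpiSC it was 1 after quantile normalization and 1 to 2 with arrays left out. With no fold minimum, members numbered 4 for FGF-ESC with EpiSC, 5 for FGF-ESC with the ICM, 2 for ESC with EpiSC, and 5 each for ESC and EpiSC with the ICM. Other pathway genes then numbered 15, 28 and 35 for FGF-ESC with ESC, EpiSC and the ICM, 28 and 32 for ESC with EpiSC and the ICM, and 44 for EpiSC with the ICM. The pathway count between FGF-ESC and ESC was 5 in a fit of these groups alone and 3 to 14 with single arrays left out. Where a setting changed a value, the cause was not tested beyond fewer arrays or genes entering it. The replicate numbers did not pair the arrays (deviations of same-numbered arrays correlated at -0.09 to 0.04 over 13597 genes), and with the replicate number as a block the member counts stayed at 2, 2, 3, 1, 1 and 2, and the pathway counts were 8, 14, 18, 15, 12 and 24. Signal over background limited Rnf43 and the 25 pathway genes that were not tested, and some calls of Wnt8a, Wls, Ror1, Rspo3, Dkkl1, Bcl9, Tnfrsf19, Fgf8, Mixl1, Cdx2 and Cdh2 have a lower mean under 4.24.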

Other observations

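A few pathway genes that were not tested, because they lay above the median of all values (4.24) on fewer than 2 arrays, were highest in EpiSC. They were chosen after their values were seen and carry no test. Wnt3, a ligand needed for the primitive streak in mice, was at 3.04 and 3.01 on the FGF-ESC arrays, 2.84 and 3.06 on the ESC arrays, 4.05 and 4.33 on the EpiSC arrays, and 2.99 and 3.15 on the ICM arrays. Nkd1, a feedback inhibitor that binds Dishevelled, was at 3.40 and 3.66 on the FGF-ESC arrays, 3.30 and 3.63 on the ESC arrays, 4.69 and 4.16 on the EpiSC arrays, and 3.26 and 3.45 on the ICM arrays. Fzd10 read 3.88 and 3.68 in EpiSC against 2.79 to 3.06 on the other arrays, and Fzd2 read 4.50 and 4.22 in EpiSC against 2.95 to 3.88. Most of these levels lie at or under the mark near background.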
